A study of Mus musculus with 96 samples.

Results

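The replication-dependent histone genes are the clustered genes that supply histone protein for newly copied DNA. Members were the protein-coding genes of the count matrix whose symbol in GENCODE M21 begins with Hist1h, Hist2h, Hist3h or Hist4h, and 65 of the 47373 genes met this rule. They comprised 6 linker histone genes (H1) and 59 core histone genes, of which 18 encode H2A, 16 H2B, 12 H3 and 13 H4. On chromosome 13 lie 52 members, with 10 on chromosome 3, 2 on chromosome 11 and 1 on chromosome 6.

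The libraries came from the livers of 12 male B6C3F1 mice aged 10 to 11 weeks, 6 of them given phenobarbital (PB) at 600 ppm in drinking water for 7 days and 6 given plain water at 0 ppm (Con). Mixed liver lobes had been flash frozen before they were divided, so every fixed portion had also been frozen. Each animal gave 1 library in each of 8 preservation states, for 96 libraries in all. FR was kept frozen. OH was fixed in 70% ethanol for 3 months, 18F in buffered formalin for 18 hours and then in ethanol to 3 months, and 3F in buffered formalin for 3 months, and these 3 states were embedded in paraffin. The other 4 states used the 3F blocks. In 3F_TAE, isolated RNA was heated for 30 min at 70 °C in Tris-acetate-EDTA buffer. In 3F_Heat, material was held for 18 hours at 55 °C without catalyst, with the AllPrep isolation kit. In 3F_CatAllPrep and 3F_CatPureLink it was held for 18 hours at 55 °C with an organocatalyst meant to remove formaldehyde adducts, with the AllPrep and the PureLink kit. The kits of the other paraffin states are not given in the labels used here, so kit and preservation cannot be told apart in comparisons with them.

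Core histones form the octamer around which DNA is wrapped, and H1 binds the linker DNA where it enters and leaves that particle. Most genes of this family are transcribed in S phase, have no introns and end their mRNAs in a conserved stem-loop in place of a poly(A) tail. The stem-loop is bound by SLBP, and the cut that forms the end is directed by the U7 small nuclear ribonucleoprotein. Libraries made by poly(A) selection therefore largely miss these mRNAs. Here total RNA was sequenced with its strand marked after ribosomal RNA had been removed, so such mRNAs can be read. Adult liver is mostly not dividing, and phenobarbital, an activator of the constitutive androstane receptor, is known as a mitogen for mouse hepatocytes.

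The sequence features that define the family were looked up first, because they set which mRNAs lack a tail and which genes can be told apart. The annotated transcripts of the 65 members (GRCm38) were searched on the transcript strand for a stem GGNNCT, a loop of any 4 bases and the reverse complement of that stem, 16 bases in all. A stem-loop of this form was present in 44 members (67.7%) and in 200 of 21620 protein-coding genes, members included (0.925%). Capitals below mark the paired stem and lower case the loop, and each sequence is followed in the text by the genes that carry it.
Most common form: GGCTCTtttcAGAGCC
H4 form: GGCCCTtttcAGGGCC
Form with a second loop: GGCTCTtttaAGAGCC
Hist1h4i form: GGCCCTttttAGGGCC
Hist1h4b form: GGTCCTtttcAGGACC
The most common form was found in 24 members, 3 H1, 10 H2A, 6 H2B and 5 H3 genes, among them Hist1h1c (chr13:23739512-23739527, + strand), Hist1h1d (chr13:23555787-23555802, + strand) and Hist1h1e (chr13:23621782-23621797, - strand). The H4 form was found in 7 members, all H4 genes, among them Hist1h4h (chr13:23531458-23531473, + strand), Hist1h4c, Hist1h4d and Hist1h4f. The form with the second loop was found in 6 members, Hist1h1t, Hist1h2bb, Hist1h2bk, Hist1h3c, Hist1h3e and Hist1h3f. The Hist1h4i form was also in Hist2h4, and the Hist1h4b form also in Hist1h4j, which makes 2 members each. The last 3 of the 44 each had a form of their own.

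Of the 21 members without a match, 11 have an annotated transcript that holds the coding part alone, so the region where a stem-loop would lie was not in the model. The other 10 include Hist1h1a, Hist1h1b, Hist1h2bc, Hist2h2be and Hist2h3b, and no match says only that these letters are not in the annotated transcripts. In 33 of the 44 the longest annotated transcript ran up to 500 bases past the stem-loop, and in 11 it ran further. Only 5 of the 65 members had a spliced transcript in the annotation.

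The promoters of the most abundant linker genes were read because H1 genes are known to share upstream elements. RefSeq promoters (GRCm38.p6) matched 60 members. The windows below are the 250 bases before the start of Hist1h1e (chr13:23622559-23622808, - strand) and Hist1h1c (chr13:23738557-23738806, + strand). Capitals mark the searched motifs, which were the H1 box AAACACA, the octamer ATTTGCAT, the TATA motif TATAAA and CCAAT, each on both strands.
Hist1h1e: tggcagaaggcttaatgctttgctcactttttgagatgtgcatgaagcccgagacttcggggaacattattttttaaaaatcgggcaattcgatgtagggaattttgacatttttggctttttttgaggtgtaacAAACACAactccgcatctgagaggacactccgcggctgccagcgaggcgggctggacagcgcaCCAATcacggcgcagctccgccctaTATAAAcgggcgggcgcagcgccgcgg
Hist1h1c: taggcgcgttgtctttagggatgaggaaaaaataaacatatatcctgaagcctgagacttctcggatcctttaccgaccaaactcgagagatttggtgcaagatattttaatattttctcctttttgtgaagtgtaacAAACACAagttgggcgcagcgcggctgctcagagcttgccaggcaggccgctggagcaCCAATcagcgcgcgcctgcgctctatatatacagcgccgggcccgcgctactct
Both windows hold the H1 box and CCAAT in the same order, and TATAAA was matched in Hist1h1e and not in Hist1h1c. Over the full windows of 300 bases, the H1 box was in 5 of 6 H1 genes and in 8.22% of the 27025 RefSeq promoters. CCAAT was in all 6 H1, all 18 H2A, all 14 H2B and all 10 H3 promoters matched, but in 3 of 12 H4 promoters, against 41.1% of all promoters. The octamer was in 6 of 14 H2B and 7 of 18 H2A promoters, against 1.97%. TATAAA was in 4 of 6 H1, 11 of 18 H2A, 8 of 14 H2B, 4 of 10 H3 and 8 of 12 H4 promoters, against 15.7%. These matches are descriptions of the letters and do not show that a factor binds.

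The libraries held between 1264563 and 18442730 gene counts (median 11913138). The shallowest was the 3F library of control animal 8A, and the next held 6257294. Members took 277271 counts over all libraries, 0.0163% to 0.037% of each library, so single members rest on few counts. Defining hepatocyte genes (6 of 6 found, Alb and Ttr among them) had a summed level, in CPM (counts-per-million), of 65858 to 92471 CPM in FR Con and of 30925 to 62256 CPM in 3F Con, and 4 of 6 were called lower and 1 higher in 3F than in FR. Of 7 Kupffer cell and macrophage genes, 5 were lower and 1 higher, with a sum of 239 to 456 CPM in FR Con and 126 to 253 CPM in 3F Con. Of 5 stellate cell and fibroblast genes, 4 were lower and 1 higher, with a sum of 424 to 568 CPM in FR Con and 311 to 495 CPM in 3F Con. Of 5 sinusoidal endothelial genes, 2 were lower and 2 higher. Of all genes tested in 3F against FR, 32.1% were lower and 33.9% higher. The part of the shifts in these defining genes in the histone changes was not tested. For T and NK cells, 6 of 6 defining genes were found, their sum was 1.18 to 1.88 CPM in FR Con, and none passed the low-count filter. In bulk tissue, fewer cells of a type and less RNA per cell cannot be told apart.

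Levels are CPM after trimmed-mean (TMM) scaling over the 96 libraries. Of the member counts, H1 genes held 38.2%, H2B 28.9%, H4 26.8%, H3 3.39% and H2A 2.71%. Compared per kilobase of exon, the highest mean level over the 96 libraries was that of the H2B gene Hist1h2bc, at 49.4 CPM per kb. It was followed by the linker gene Hist1h1c (32.4 CPM per kb), the H4 gene Hist1h4h (25.2), the linker gene Hist1h1e (16.2), and the H4 genes Hist1h4d (15.3) and Hist1h4c (14.5). The levels of Hist1h4d, Hist1h4c and Hist1h1e are close, and neighbours in this order were not tested against each other. The lowest were Hist1h2ao, Hist1h2ap, Hist1h2br, Hist2h2aa1 and Hist2h3c1, with 0 counts in all 96 libraries. By counting error only, that allows at most 0.00262 CPM over all libraries together (3 counts). However, 88.5% to 100% of the 50-base words of their transcripts also occur in other genes. Their reads could have been dropped or counted elsewhere, so 0 counts set no limit on their expression. Hist1h2aa, Hist1h2bq and Hist1h4m had 1 to 3 counts. In 32 members over 50% of the 50-base words of the transcript also occur in another gene, so counting could split or drop their reads, and their values are uncertain. Of the 65 members, 33 passed the low-count filter in none of the 22 comparisons of states or treatment, 32 passed in at least 1, and 17 passed in all.

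Summed over members after TMM scaling, core histone mRNA was below the same animal's frozen liver in nearly all animals of every fixed state. The core sum in FR ran from 165 to 269 CPM (median 195). In OH it ran from 136 to 229 CPM (median 157), with a median ratio to the same animal's FR of 0.82, lower in 12 of 12 animals. In 18F it ran from 131 to 271 CPM (median 188), ratio 0.90, lower in 10 of 12. The 3F libraries held 101 to 185 CPM (median 132), ratio 0.64, lower in 12 of 12. The medians of the 4 treated states lay below that of 3F, with median ratios of 0.62 in 3F_TAE, 0.61 in 3F_Heat, 0.63 in 3F_CatAllPrep and 0.54 in 3F_CatPureLink, each lower than FR in 12 of 12 animals. The linker sum in FR ran from 112 to 176 CPM (median 130). Its medians were 111 CPM in OH, 96.1 in 18F, 80.8 in 3F, 84.7 in 3F_TAE, 70.1 in 3F_Heat, 73.5 in 3F_CatAllPrep and 67.6 in 3F_CatPureLink, lower than FR in 12 of 12 animals in each state. The linker share of member CPM was 40.4% in FR at the median and 33.3% in 18F, lower in 12 of 12 animals, while the other states had medians of 37.9% to 41.1%. These sums are descriptions and carry no p. With library totals in place of TMM, the median over all genes shifts by 0.18 on the log2 scale in 18F. The 18F core ratio of 0.90 is within the size of that shift, so no direction is given for it.

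**Figure D1:**
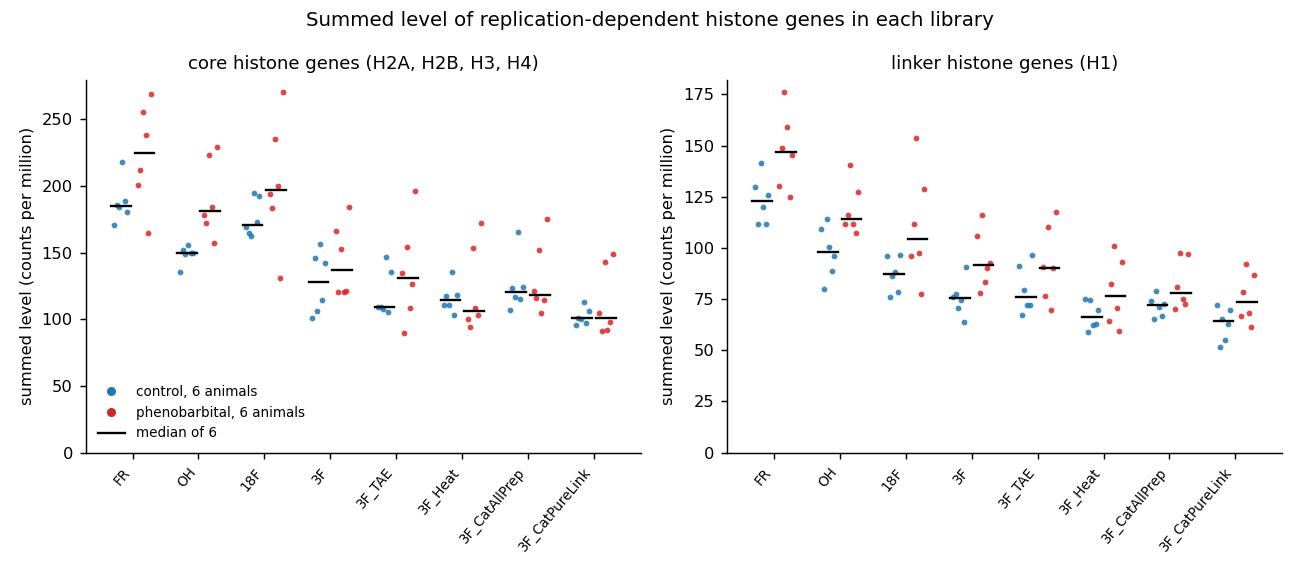
Summed level of core and of linker histone members per library, in TMM-scaled counts-per-million, by preservation state. Points are libraries, blue for control and red for phenobarbital, and lines mark the median of each treatment within a state. Over both treatments, the core median is 195 CPM in FR and 132 CPM in 3F, and the linker median is 130 CPM in FR and 80.8 CPM in 3F.

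Member by member, each preserved state was set against FR in the same animals with edgeR's quasi-likelihood test, with the animal as a block and Benjamini-Hochberg adjustment over all genes tested at 0.05. All 7 comparisons share the 12 FR libraries. A gene passed the low-count filter by its counts in either state or in both together. A member that passed through its frozen level alone was under the minimum in some library of the preserved state, which favours a fall. The members with enough counts in both states (above the filter's CPM minimum in all 12 libraries of each) are therefore given first. That rule has the opposite lean, because it leaves out members that fell below the minimum in any preserved library.

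In OH, 15 of 20 such members were lower and 0 higher (median log2 change -0.27), and in 18F 9 of 20 were lower and 1 higher (median -0.19). In 3F only 8 had enough counts in both states, of which 5 were lower and 2 higher (median -0.52). In the states treated after fixation, 9 of 14 were lower and 1 higher in 3F_TAE (median -0.94), 12 of 15 lower and 1 higher in 3F_Heat (median -1.01), 13 of 16 lower and 1 higher in 3F_CatAllPrep (median -1.02), and 13 of 15 lower and 1 higher in 3F_CatPureLink (median -1.21). These medians rest on different member sets, so they are not compared between states. Over all members tested, the medians were -1.09 in 3F, -1.01 in 3F_TAE, -1.08 in 3F_Heat, -1.035 in 3F_CatAllPrep and -1.21 in 3F_CatPureLink. Those sets include members that passed through FR alone. Of all genes tested, 27.1% were called lower and 25.8% higher in OH, 29.7% and 28.1% in 18F, 32.1% and 33.9% in 3F, 32.3% and 36.7% in 3F_TAE, 33.4% and 33.3% in 3F_Heat, 28.6% and 34.6% in 3F_CatAllPrep, and 33.5% and 37.8% in 3F_CatPureLink. Here and below, such shares cover every gene that passed the filter by any route. They were not computed for genes with enough counts in both states, so the sets are unlike. Medians over all genes tested were within 0.04 of 0.

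Over every member that passed the filter, 20 of 30 were lower and 0 higher in OH, 11 of 30 lower and 3 higher in 18F, 21 of 28 lower and 4 higher in 3F, 20 of 27 lower and 3 higher in 3F_TAE, 22 of 27 lower and 3 higher in 3F_Heat, 23 of 28 lower and 2 higher in 3F_CatAllPrep, and 23 of 27 lower and 2 higher in 3F_CatPureLink. In 3F, 14 of the 28 passed through FR alone, with a median of -1.46, and 6 through both states together but neither alone. The median over the 28, which includes those picked by their frozen level alone, was -1.09. With no filter, 31 of the 57 members with a count were lower in 3F and 2 higher. In OH, 21 members had an unadjusted p under 0.05 in either direction, DESeq2 called 14 lower and 0 higher, and without the animal block edgeR called 10 lower. In 18F, 5 were lower without the block. With library totals in place of TMM the median over all genes shifts by 0.04 in 3F, by 0.18 in 18F and by up to 0.27 in 3F_CatPureLink. In 18F the member median then becomes 0.01, and 6 members are lower and 6 higher.

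**Figure D2:**
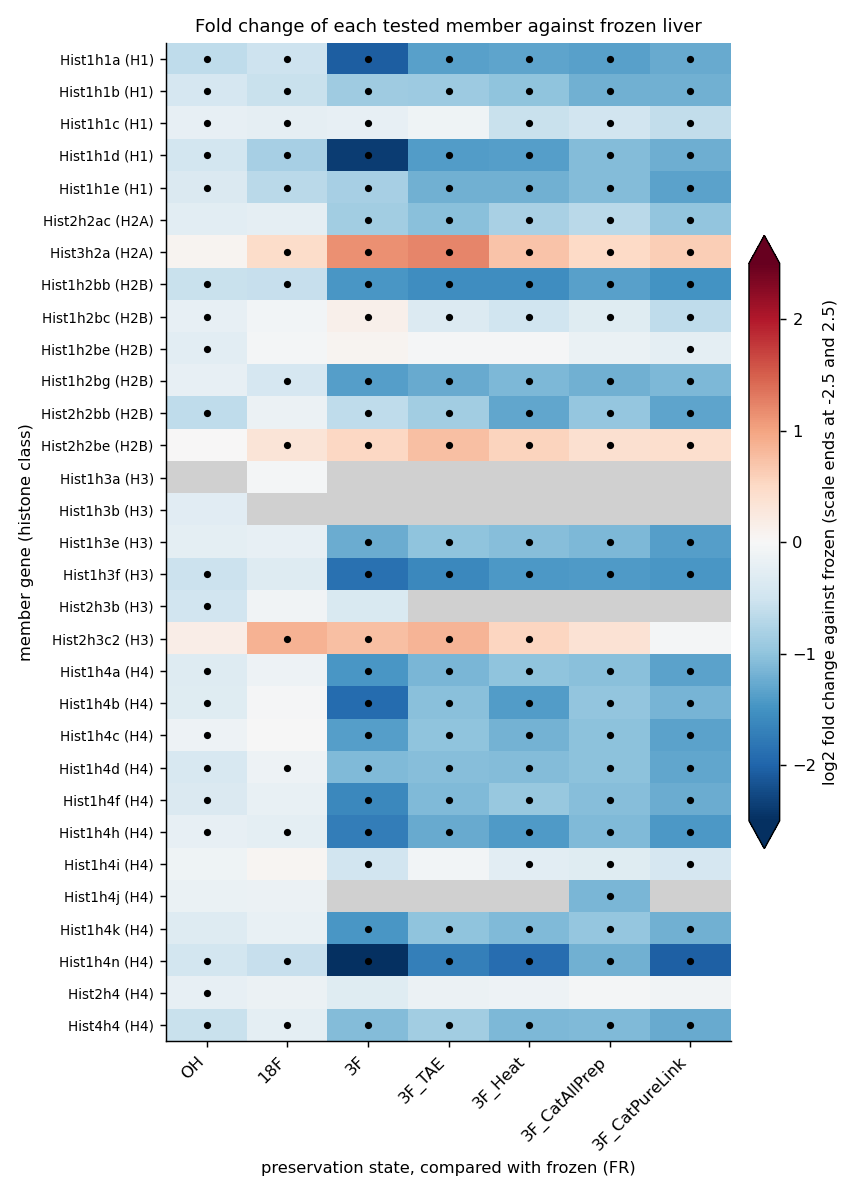
Fitted log2 fold change of each tested member against frozen liver, by preservation state, as a colour map with 1 row per member, ordered by histone class (blue lower, red higher, grey not tested, colours ending at -2.5 and 2.5). Dots mark an adjusted p under 0.05. Among members with enough counts in both states the median is -0.27 in OH (20 members), -0.19 in 18F (20 members) and -0.52 in 3F (8 members). The member sets differ between states.

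All linker genes tested were lower than FR in 6 of the 7 states: 5 of 5 in OH, 18F, 3F, 3F_Heat, 3F_CatAllPrep and 3F_CatPureLink, and 4 of 5 in 3F_TAE, where the exception was Hist1h1c. Those with enough counts in both states were also lower, 4 of 4 in OH, 3 of 3 in 18F, 2 of 2 in 3F (Hist1h1c and Hist1h1e) and 3 of 3 in 3F_CatPureLink, with medians of -0.41, -0.68, -0.52 and -1.21. In 3F, Hist1h1a and Hist1h1d passed the filter through FR alone. The sixth linker gene, Hist1h1t, which encodes the testis form, had 59 counts over 96 libraries and was not tested in these comparisons.

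Hist1h1e encodes one of the main somatic linker histones (chr13:23620629-23622558, - strand, 1930 exonic bases, unspliced). It overlaps the annotated Hist1h2be on the same strand, so reads of the pair could be split or dropped. Its level ran from 45.7 to 74.8 CPM in FR (median 52.0), 31.1 to 51.1 in OH (median 42.3), 23.9 to 44.0 in 18F (median 32.6) and 18.7 to 42.8 in 3F (median 27.9). Every 18F and every 3F library lay below every FR library, while the OH range overlapped FR. In edgeR's test with Benjamini-Hochberg adjustment the log2 change was -0.35 in OH, -0.68 in 18F and -0.83 (SE 0.07, adjusted p = 2.34e-10) in 3F, lower in 12 of 12 animals each time. In 3F_CatPureLink it ran from 14.7 to 24.9 CPM (median 21), a change of -1.33 (SE 0.05, adjusted p = 9.22e-18).

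Hist1h1c encodes the other abundant somatic linker histone of these livers (chr13:23738808-23740367, + strand, 1560 exonic bases). It ran from 47.3 to 85.7 CPM in FR (median 63.1) and from 37.0 to 74.4 CPM in 3F (median 52.1). The ranges overlapped widely and the change was small, -0.20 (SE 0.06, edgeR adjusted p = 0.00712), lower in 11 of 12 animals. In 3F_TAE it was -0.11 (SE 0.06, adjusted p = 0.0947), which did not pass, and in 3F_CatPureLink it was -0.62 (SE 0.04, adjusted p = 4.26e-14).

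Hist1h1d has a lower level per length, 0.896 CPM per kb over a gene model of 7425 exonic bases (chr13:23553262-23560686, + strand), most of which lies past the stem-loop. It fell furthest of the linker genes in 3F. Its level was 9.41 to 21.1 CPM in FR (median 11.7), 5.39 to 14.2 in OH (median 8.61), 3.37 to 15.9 in 18F (median 6.61) and 0.276 to 4.30 in 3F (median 2.29). No 3F library reached the FR range, and the log2 change was -2.36 (SE 0.18, edgeR adjusted p = 1.62e-11), a 5.15-fold lower level. Hist1h1a (chr13:23763666-23764406, + strand, 741 exonic bases) was also lower in 3F, at 0 to 1.82 CPM (median 0.589) against 1.26 to 13 CPM in FR (median 2.79). The ranges touched because of the wide FR range, and the change was -2.05 (SE 0.23, adjusted p = 1.61e-08), lower in 12 of 12 animals. Hist1h1b changed by -0.89 (SE 0.29, adjusted p = 0.00827) from few counts.

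**Figure D3:**
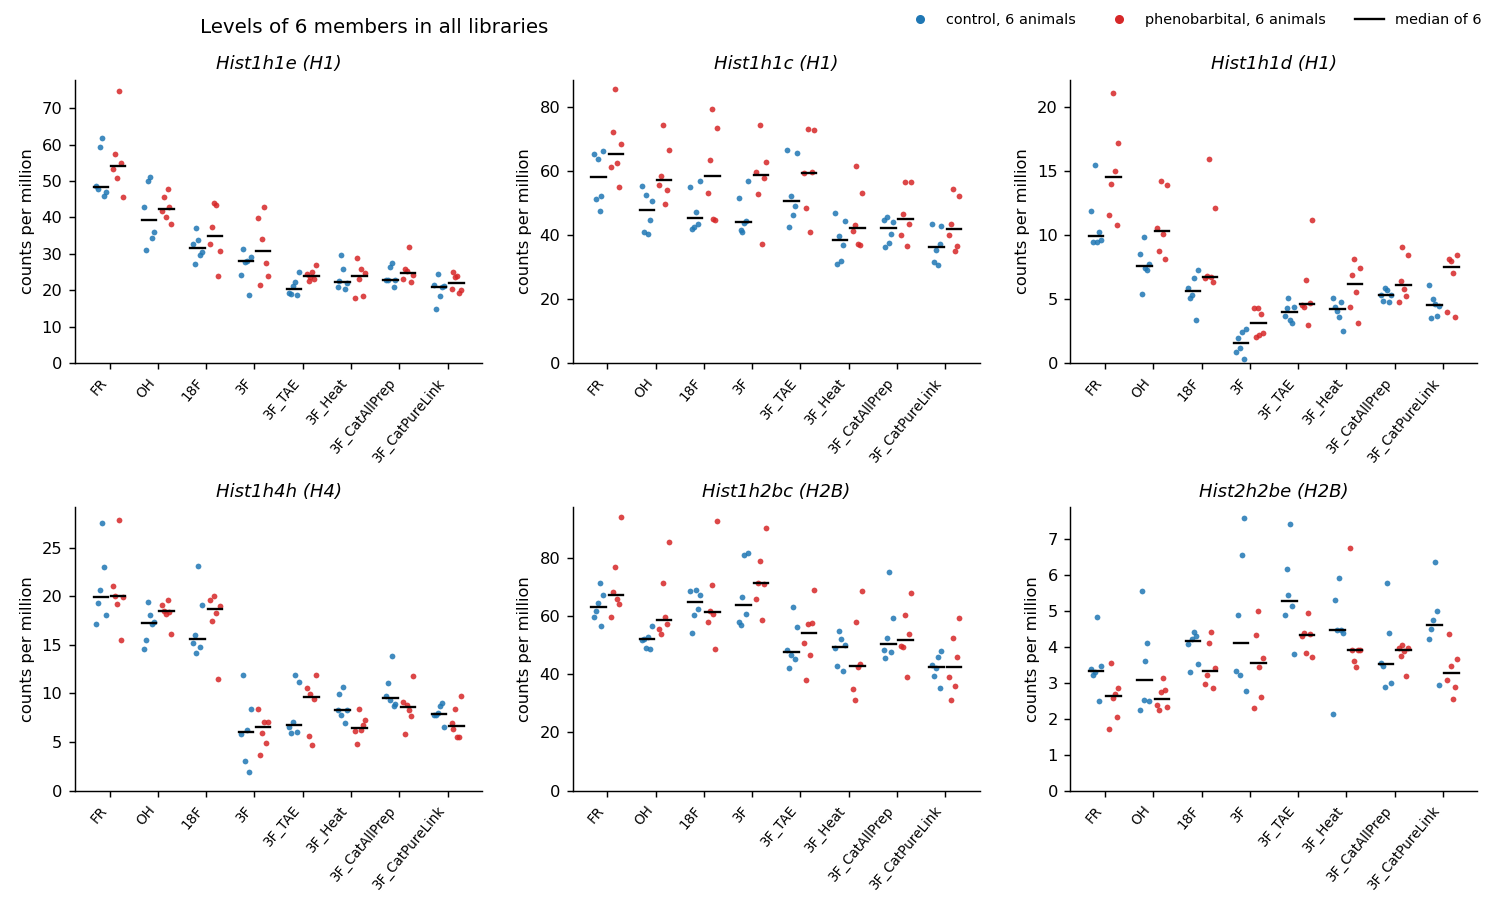
Level of 6 members in every library, in TMM-scaled counts-per-million on a linear axis from 0, by preservation state and treatment (blue control, red phenobarbital, lines the median of each 6). Over both treatments, Hist1h1e and Hist1h4h lie below the frozen range in every 3F library, and Hist1h2bc overlaps it, with medians of 65.2 CPM in FR and 68.9 CPM in 3F.

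In the H4 class, 3 genes had enough counts in both 3F and FR, and all 3 were lower (Hist1h4h, Hist1h4d and Hist4h4, median -1.10). Another 7 passed the filter through FR alone, among them Hist1h4c, Hist1h4f, Hist1h4i and Hist1h4n, and 6 of them were lower. Hist1h4k passed through both states together and was lower. The gene not called, Hist2h4, was at -0.29 (edgeR adjusted p = 0.116). In OH, 9 of the 10 H4 genes with enough counts in both states were lower (median -0.31), against 27.1% of all genes tested. In 18F 4 of 10 were lower, against 29.7% of all genes tested. The 18F median of -0.14 is within the 0.18 shift from library totals in place of TMM, so no direction is given for it. The summed H4 level had a median ratio to the same animal's FR of 0.820 in OH, 0.859 in 18F, 0.387 in 3F, 0.521 in 3F_TAE, 0.503 in 3F_Heat, 0.516 in 3F_CatAllPrep and 0.435 in 3F_CatPureLink. The H4 genes encode nearly the same protein from separate loci.

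Hist1h4h (chr13:23531050-23531519, + strand, 470 exonic bases) ran from 15.5 to 27.8 CPM in FR (median 20.0), 11.4 to 23.2 in 18F (median 17.9) and 1.93 to 11.9 in 3F (median 6.06). The 3F and FR ranges did not overlap, and the change was -1.73 (SE 0.16, edgeR adjusted p = 3.18e-10). Against 18F the 3F change was -1.51 (SE 0.15, adjusted p = 1.78e-08), lower in 12 of 12 animals. Hist1h4d (chr13:23581598-23582735, + strand, 1138 exonic bases) ran from 21.9 to 35.8 CPM in FR (median 28.4) and from 6.52 to 24.8 CPM in 3F (median 10.7), a change of -1.10 (SE 0.13, adjusted p = 2.43e-08). Its 3F and FR ranges overlapped at the high end of 3F. In 18F its change was -0.12 (SE 0.05, adjusted p = 0.0224), and with library totals in place of TMM it was 0.06, so no direction is given for it there. Hist1h4c (chr13:23697635-23698454, - strand, 820 exonic bases) ran from 13 to 24.8 CPM in FR (median 18.1) and from 0.83 to 17.0 CPM in 3F (median 6.23), a change of -1.38 (SE 0.16, adjusted p = 3.49e-08).

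Hist1h4f and Hist1h4i sit at lower levels. Hist1h4f (chr13:23551258-23551648, - strand) fell from 1.61 to 6.30 CPM in FR (median 3.2) to 0.276 to 2.89 CPM in 3F (median 0.905), with overlapping ranges and a change of -1.61 (SE 0.24, edgeR adjusted p = 1.52e-06). Hist1h4i (chr13:22040636-22041362, - strand) moved least of the 10, from 3.10 to 5.89 CPM in FR (median 3.94) to 0 to 6.82 CPM in 3F (median 2.39), a change of -0.47 (SE 0.18, adjusted p = 0.0275). Hist1h4n (chr13:21831767-21832196, - strand, 430 exonic bases) had the largest fitted drop of all members tested in 3F. It held 566 counts in the FR libraries, at 1.68 to 4.31 CPM (median 3.49), and 15 counts in the 3F libraries, at 0 to 0.681 CPM (median 0.135), with 5 of 12 libraries at 0. The groups did not overlap, and the change was -4.27 (SE 0.34, adjusted p = 3.17e-11). Of its 50-base words 85.6% are shared with other genes, so its counts are uncertain.

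H2B genes split in 3F, where 3 of 6 tested were lower and 2 higher. Those with enough counts in both states were Hist1h2bc and Hist2h2be, called higher, and Hist1h2be, which did not pass. Hist1h2bc (chr13:23684199-23692908, + strand, 1156 exonic bases), the member with the highest level per kb, stayed within its frozen range in 3F: 56.7 to 94.2 CPM in FR (median 65.2), 48.6 to 92.6 in 18F (median 62.1) and 57.0 to 90.2 in 3F (median 68.9). The 3F and FR ranges nearly coincide, and 18F overlaps both. The 3F change of 0.13 (SE 0.05, edgeR adjusted p = 0.0200) passed the threshold and was higher in 8 of 12 animals, but not with relative log expression scaling (adjusted p = 0.0554) or in DESeq2 (adjusted p = 0.0592). It was lower than FR in the states treated after fixation, with 31.3 to 59.2 CPM in 3F_CatPureLink (median 42.7), a change of -0.63 (SE 0.04, adjusted p = 6.61e-13), lower in 12 of 12 animals. The summed H2B level, most of it from this gene, had a median ratio to FR of 0.958 in 3F and 0.664 in 3F_CatPureLink.

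Hist2h2be on chromosome 3 (chr3:96221119-96223738, + strand, 2620 exonic bases) rose in 6 of the 7 states. It ran from 1.71 to 4.81 CPM in FR (median 3.03), 2.31 to 7.58 in 3F (median 3.56) and 3.70 to 7.41 in 3F_TAE (median 4.64). The ranges overlapped, and the changes were 0.53 (SE 0.16, edgeR adjusted p = 0.0063) in 3F and 0.75 (SE 0.11, adjusted p = 2.12e-06) in 3F_TAE, the latter higher in 12 of 12 animals. In OH it was at 0.01 (adjusted p = 0.941). Hist1h2bb and Hist1h2bg, H2B genes with short models, fell by 1.46 and by 1.38 on the log2 scale in 3F, and both passed the filter through FR alone.

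Of the H2A genes, 2 were tested in 3F, and neither had enough counts in both states. Hist2h2ac was lower, at -0.88 (SE 0.21, edgeR adjusted p = 0.000797), in 12 of 12 animals. Hist3h2a (chr11:58954685-58956830, + strand, 2146 exonic bases) was higher, from 0.685 to 1.54 CPM in FR (median 1.05) to 0.795 to 3.32 CPM in 3F (median 2.47), a change of 1.14 (SE 0.22, adjusted p = 6.86e-05) in 11 of 12 animals. It overlaps Trim17 on the same strand, so reads may be shared between them. In 3F_TAE its range of 1.56 to 3.43 CPM did not overlap FR. Among the H3 genes, 2 of 4 tested in 3F were lower and 1 higher, and none of the 4 had enough counts in both states. Hist1h3f changed by -1.86 (SE 0.34, adjusted p = 2.67e-05) and Hist1h3e by -1.24 (SE 0.18, adjusted p = 1.24e-06). Hist2h3c2 (chr3:96238108-96239127, - strand) was higher in 18F, at 0.760 to 2.47 CPM (median 1.44) against 0.498 to 1.38 CPM in FR (median 0.728), a change of 0.87 (SE 0.16, adjusted p = 3.08e-05) in 12 of 12 animals. It passed the filter through its 18F level alone, its FR counts were 138 over 12 libraries, and 63.5% of its words are shared.

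Longer formalin fixation was compared directly. In 3F against 18F, 8 members had enough counts in both states, of which 3 were lower and 1 higher, against 28.1% and 25.8% of all genes, with a median of -0.09. The 3 were the H4 genes Hist1h4h (-1.51), Hist1h4d (-1.01) and Hist4h4 (-0.87), and Hist1h2bc was higher (0.17). Over all 24 members that passed the filter 14 were lower and 2 higher, but 11 of the 24 passed through 18F alone, among them Hist1h4b (-1.95) and Hist1h1d (-1.58), and 5 through neither state alone. Hist1h1e, at -0.18 (SE 0.08, edgeR adjusted p = 0.0813), and Hist1h1c, at -0.01 (SE 0.06, adjusted p = 0.922), did not pass.

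The treatments of fixed material were compared with 3F itself, and these 4 comparisons share the 3F libraries. Most members did not pass in either direction. In 3F_TAE, 2 of 19 tested were higher and 2 lower, against 17% and 17.5% of all genes. In 3F_Heat, 2 of 19 were higher and 3 lower, against 28.8% and 27.1%. In 3F_CatAllPrep, 2 of 20 were higher and 4 lower, against 29.6% and 28.2%. In 3F_CatPureLink, 2 of 21 were higher and 5 lower, against 34.9% and 31.8%. In each comparison 8 members had enough counts in both states. Of these, 1 was higher and 2 lower in 3F_TAE, 0 and 3 in 3F_Heat, 1 and 3 in 3F_CatAllPrep, and 0 and 3 in 3F_CatPureLink, with medians of 0.07, -0.02, -0.17 and -0.21.

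Hist1h1d was called higher than 3F in all 4 treated states, and in each it passed the filter through the treated state alone. From 0.276 to 4.30 CPM in 3F it went to 2.96 to 11.1 CPM in 3F_TAE (median 4.39), 2.52 to 8.14 in 3F_Heat (median 4.56), 4.76 to 9.07 in 3F_CatAllPrep (median 5.51) and 3.51 to 8.43 in 3F_CatPureLink (median 4.80). Only the 3F_CatAllPrep range lay wholly above 3F. The changes were 1.01, 1.06, 1.33 (SE 0.20, edgeR adjusted p = 2.49e-06) and 1.19, and the level stayed below FR in 12 of 12 animals in each state. Hist1h4h was higher than 3F in 3F_TAE (0.47, SE 0.16, adjusted p = 0.0256) and 3F_CatAllPrep (0.63, SE 0.15, adjusted p = 0.000778), Hist1h4f in 3F_Heat (0.72, SE 0.25, adjusted p = 0.0199) and Hist1h1a in 3F_CatPureLink (0.82, SE 0.29, adjusted p = 0.014). The last pair passed the filter through neither state alone. Hist1h2bc and Hist1h1e were lower than 3F in all 4 states, by 0.73 and 0.48 on the log2 scale in 3F_CatPureLink.

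The catalyst was tested apart from heat by setting 3F_CatAllPrep against 3F_Heat. Of 23 members tested, 2 were higher and 0 lower, against 8.08% and 5.9% of all genes, with a member median of 0.03. The pair were Hist1h4h (0.29, SE 0.07, edgeR adjusted p = 0.00749, higher in 12 of 12 animals) and Hist1h2bc (0.17, SE 0.06, adjusted p = 0.0473), and without the animal block neither passed. DESeq2 called 2 higher and 0 lower, and 4 members had an unadjusted p under 0.05. Between the kits, 7 of 23 members were lower in 3F_CatPureLink than in 3F_CatAllPrep and 0 higher, against 19.1% and 17.8% of all genes, with a median of -0.15. The largest was Hist1h4n, at -0.80 (SE 0.17, adjusted p = 0.000475), which passed the filter through 3F_CatAllPrep alone, and Hist1h2bc was at -0.32 (SE 0.05, adjusted p = 5.71e-06), both lower in 12 of 12 animals. Without the animal block 1 member was called lower. For the 0 higher, DESeq2 also called 0, and 9 members had an unadjusted p under 0.05 in either direction.

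Members differ in the length of their gene models, which was not part of their choice. The 15 members with enough counts in both FR and 3F_CatPureLink are described first. Among them Hist1h4h, of up to 500 exonic bases, was at -1.43, and the 5 of 500 to 1000 bases had a median of -1.34 (5 lower). The 5 of 1000 to 2000 bases had a median of -0.63 (4 lower), the 2 of 2000 to 4000 bases a median of -0.42 (1 lower, 1 higher), and the 2 over 4000 bases a median of -0.73 (2 lower). Other protein-coding genes were also lower in that comparison where short, with medians of -0.73 up to 500 bases (13 genes), -0.64 from 500 to 1000 bases (186 genes) and -0.39 from 1000 to 2000 bases (1219 genes). These other genes passed the filter by any route and were not held to enough counts in both states.

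In 3F the length classes are mostly filled by members that passed through FR alone, 3 of 7 up to 500 bases and 8 of 9 from 500 to 1000 bases, so their medians (-1.61 and -1.38) support no reading by length. Members of 1000 to 2000 bases had a median of -0.29 (4 of 7 lower, 2 higher), the 3 of 2000 to 4000 bases a median of 0.53 (1 lower, 2 higher), and the 2 over 4000 bases a median of -1.15 (1 lower), Hist1h1d being the lower one. Other protein-coding genes had a median of 0.01 up to 500 bases (12 genes, 33.3% called lower), -0.32 from 500 to 1000 bases (180 genes, 53.9%) and -0.20 from 1000 to 2000 bases (1177 genes, 46%).

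**Figure D4:**
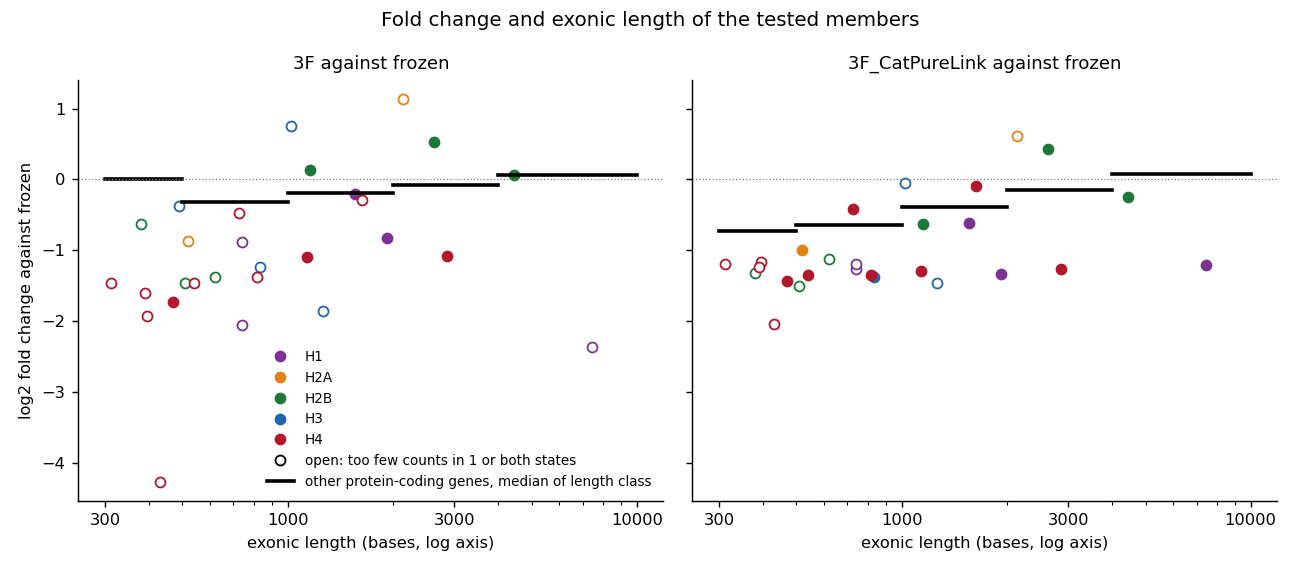
Log2 fold change of members in 3F (left) and 3F_CatPureLink (right) against frozen liver by exonic length, on a log axis in bases, coloured by histone class, with bars for the median of other protein-coding genes of each length class. Filled points had enough counts in both states (8 members in 3F, 15 in 3F_CatPureLink), and the filled points of 500 to 1000 bases in 3F_CatPureLink have a median of -1.34 against -0.64 for other genes of that length. The other genes were not held to that count rule.

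The 163 other protein-coding genes with no spliced transcript had a median of 0.32 in 3F, with 27 lower and 85 higher, and the 174 in 3F_CatPureLink a median of 0.06, with 50 lower and 61 higher. By stem-loop, 6 members with enough counts in FR and 3F_CatPureLink had a transcript that ran up to 500 bases past it, and these had a median of -1.34 (6 lower). The 7 whose transcript ran further had a median of -1.21 (6 lower). Hist1h2bc and Hist2h2be, in which none was found, were 1 lower and 1 higher. In 3F, 11 of the 13 tested members with the shorter end passed through FR alone, and no comparison of these classes is made there. The classes overlap with length, and the part of each was not tested.

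Genes that work with the family were read from lists of known members. Beside each list stand all genes tested in 3F against FR, 32.1% of them lower and 33.9% higher. S phase and DNA replication genes were mostly lower in 3F than in FR, with 15 of 27 tested lower and 2 higher (median -0.37). Among them were Pcna, the replication clamp (-1.46, edgeR adjusted p = 5.45e-11), the helicase subunit Mcm7 (-1.01) and the maintenance methyltransferase Dnmt1 (-0.94), while the licensing factor Cdt1 was at 0.00. Replacement histones, most of which have poly(A) tails and introns, split evenly, with 4 of 9 higher and 4 lower (median 0.12). H1f0, a linker histone of non-dividing cells, was at 0.53 and H3f3b at 0.45, H3f3a was at -0.85, and H2afv, at 0.12, did not pass. Of the histone mRNA processing and decay factors, 10 of 19 were lower and 5 higher (median -0.22), among them the cleavage factors Cpsf3 (-0.82) and Cpsf1 (-0.72) and the cap-binding partner Srrt (-0.87), with Fip1l1 at 0.05 not passing. Of the histone chaperones, 9 of 17 were lower and 3 higher (median -0.34), among them Ssrp1 (-0.95), Rbbp7 (-0.48) and Supt16 (-0.46), with Npm1 at -0.01 not passing.

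Phenobarbital was compared with control water within each state, 6 animals against 6. In frozen liver, 23 members had enough counts in both groups (above the filter's minimum in all 6 libraries of each), of which 2 were called higher and 0 lower by edgeR, against 5.89% and 3.53% of all genes, with a median of 0.23 on the log2 scale. Over all 31 members tested 4 were higher and 0 lower. DESeq2 also called 4 higher, and 11 had an unadjusted p under 0.05. Leaving out animal 8A, 8C, 8D, 90C, 20B or 80B left 2 calls, and leaving out 75C gave 6.

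Hist1h1a, a gene for another somatic linker histone, was called higher with phenobarbital in 5 of the 8 states. It had enough counts in both groups in FR and OH, passed the filter through the phenobarbital group alone in 18F and 3F_CatPureLink, and through neither group alone in 3F_CatAllPrep. In FR it ran from 1.26 to 2.44 CPM in controls (median 1.92) and from 3.13 to 13 CPM with phenobarbital (median 4.42). The groups did not overlap, and the highest values were those of animals 20B (13 CPM) and 80B (9.31 CPM). The change was 1.69 (SE 0.36, edgeR adjusted p = 0.0104), a 3.24-fold higher level. It passed also in OH (1.53, adjusted p = 0.0213), 18F (1.93, adjusted p = 0.0292), 3F_CatAllPrep (1.77, adjusted p = 0.0429) and 3F_CatPureLink (1.68, adjusted p = 0.0215), and not in 3F_TAE (1.45, SE 0.47, adjusted p = 0.124). In 3F it ran from 0 to 1.82 CPM in controls and 0.501 to 1.74 CPM with phenobarbital, and it did not pass the filter there or in 3F_Heat. Hist1h3b (chr13:23752267-23752886, + strand) ran from 0.148 to 0.784 CPM in frozen controls (median 0.362) and 0.814 to 3.32 CPM with phenobarbital (median 1.15). These groups did not overlap either, with a change of 2.13 (SE 0.47, adjusted p = 0.0115), but it passed the filter through the phenobarbital group alone. Hist1h3a (1.35, SE 0.36, adjusted p = 0.0306) and Hist1h2be (0.82, SE 0.23, adjusted p = 0.0368) passed with overlapping ranges, the former with enough counts in neither group alone.

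**Figure D5:**
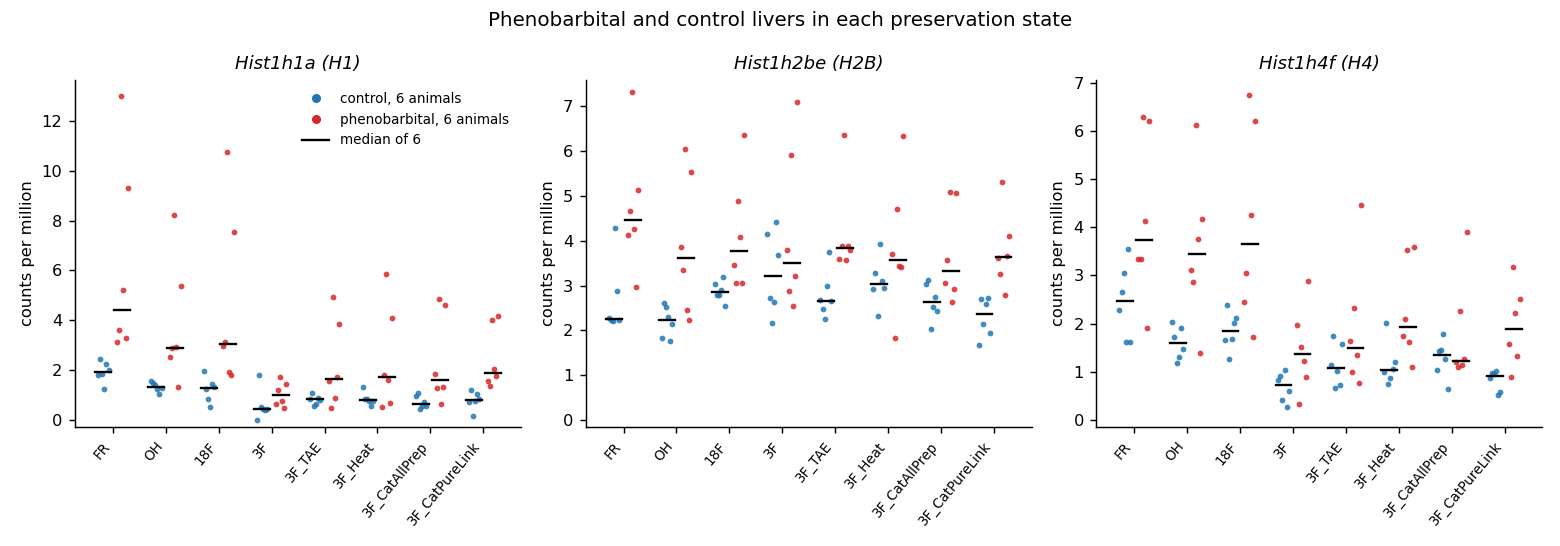
Level of Hist1h1a, Hist1h2be and Hist1h4f in control and phenobarbital libraries, in TMM-scaled counts-per-million, by preservation state, with lines at the median of each 6. Frozen Hist1h1a is 1.26 to 2.44 CPM in controls and 3.13 to 13 CPM with phenobarbital, and in 3F the groups overlap.

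The abundant members did not pass in frozen liver. Hist1h1e was at 0.11 (SE 0.11, edgeR adjusted p = 0.579), Hist1h1c at 0.23 (SE 0.11, adjusted p = 0.237), Hist1h2bc at 0.17 (SE 0.10, adjusted p = 0.324) and Hist1h4h at -0.03 (SE 0.14, adjusted p = 0.936). The core sum in FR was 170.5 to 218 CPM in controls and 165 to 269 CPM with phenobarbital, and the groups overlapped.

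In OH, 4 of 30 members were called higher and 0 lower, against 4.82% and 2.16% of all genes, and 3 of the 20 with enough counts in both groups (median 0.35). They were Hist1h1a, Hist1h4a (0.99, edgeR adjusted p = 0.0122, groups not overlapping), Hist1h4f (1.15, adjusted p = 0.0264) and Hist1h2bb (1.27, adjusted p = 0.0385). DESeq2 called 7, and without animal 80B 1 was called and without 75C 9. In 18F, 1 of 28 was higher and 0 lower, against 3.45% and 1.43%, and no call was left without 8C, 8D, 21C, 82B, 90C, 20B or 80B. Fewer members could be tested in 3F, where 0 of 18 were called in either direction by edgeR or DESeq2, with 2 at an unadjusted p under 0.05, against 1.66% and 0.446% of all genes. In 3F_TAE 0 of 22 were called by edgeR and 1 by DESeq2 (5 at an unadjusted p under 0.05, all genes 2.35% higher and 0.941% lower). In 3F_Heat 0 of 19 were called by edgeR or DESeq2 (5 at an unadjusted p under 0.05, all genes 3.53% and 1.5%). In 3F_CatAllPrep, 1 of 23 was higher and 0 lower, against 3.12% and 1.82%, and no call was left without 8A, 8C, 8D, 21C, 82B, 90C, 20B or 80B. In 3F_CatPureLink, 3 of 23 were higher and 0 lower, against 3.21% and 1.44%, namely Hist1h1a, Hist1h4f (1.25, adjusted p = 0.0276) and Hist1h2be (0.74, adjusted p = 0.0349), of which only Hist1h2be had enough counts in both groups. Without animal 8A, 20B or 80B none of the 3 remained at the threshold.

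Whether the phenobarbital effect itself differed between a preserved state and FR was tested with an interaction term. In none of the 7 comparisons was a member called by edgeR, of 31 to 37 tested, and the numbers at an unadjusted p under 0.05 were 2 in OH, 0 in 18F, 1 in 3F, 0 in 3F_TAE, 1 in 3F_Heat, 3 in 3F_CatAllPrep and 0 in 3F_CatPureLink. Over all genes 0.0612% were called in 3F_Heat and 0% in the other 6. For Hist1h1a in 3F the difference was -0.95 (95% interval -1.92 to 0.01, unadjusted p = 0.0534, edgeR adjusted p = 0.873). A missing call in 3F is therefore not shown to be a smaller effect.

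S phase genes moved with phenobarbital in the same animals. In FR, 15 of 27 S phase genes tested were higher and 0 lower (median 0.81), against 5.89% and 3.53% of all genes. Among them were the cyclins Ccna2 (2.5) and Ccne2 (1.93, edgeR adjusted p = 9.58e-05) and the hemimethylated-DNA reader Uhrf1 (2.72). Cdk2, at -0.01, did not pass. The summed level of the S phase genes was 188 to 232 CPM in control FR libraries. With phenobarbital it was 567 CPM in 20B and 500 CPM in 80B, the animals with the highest Hist1h1a, and 228 to 307 CPM in the other 4. The summed level of the hepatocyte genes was also lower with phenobarbital in FR, at 47391 to 76528 CPM against 65858 to 92471 CPM in controls, with overlapping groups and 1 of 6 called lower. The part of either in the histone result was not tested. In 3F, 5 of 26 S phase genes were higher and 0 lower, against 1.66% and 0.446% of all genes. Of the replacement histones 2 of 10 were higher in FR, H3f3b (0.28) and H2afy2 (1.06). Of the chaperones 3 of 19 were higher, among them the CAF-1 subunits Chaf1b (1.96) and Chaf1a (1.25), and 2 lower, among them Ubn1 (-0.17).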

How the data were processed

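Per the labels, ribosomal RNA was removed from total RNA before stranded libraries were built. The authors deposited raw gene counts in 1 table of 47465 rows. The submitters' processing notes name CASAVA, STAR 2.5, edgeR, GRCm38 and mm10 without roles, and no source used here gives the counter, its strand setting or the annotation. Groups and animals were taken from the titles and tissue labels. The 92 spike-in rows (110 counts in all) were left out, and symbols and biotypes came from GENCODE M21, which matched 46868 of 47373 genes. Of 68 rows with a matching symbol, 3 were pseudogenes and were left out. The count table held no row under the GENCODE M21 genes of 2 protein-coding symbols, Hist1h2bm and Hist1h2bh. Stem-loops and shared words came from the annotated transcripts, and promoters from RefSeq.

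All genes were fitted with edgeR 4.0.16 (quasi-likelihood test, TMM scaling, default low-count filter with a minimum of 10 counts, Benjamini-Hochberg adjustment over all genes tested, threshold 0.05), in R 4.3.3. State comparisons used the 24 libraries of 2 states with the animal as a block. Phenobarbital was tested on the 12 libraries of a state without covariates, and the interaction on 24 libraries with the block. SEs were taken as the size of the log2 change over the root of the F statistic. The interval of the interaction was scaled to the test's own p. The labels pair libraries by animal, and of 336 pairs of libraries from the same animal, all correlated above 0.1 in their deviations from group means (median r 0.568 over 12935 genes). P-values of the state and interaction tests measure the spread, over these 12 mice, of the difference between 2 states within an animal. With 1 library per animal and state, spread from preparing the libraries is included. P-values of the phenobarbital tests within a state measure the spread between mice of a group. The fits were tested on simulated counts. Alternatives were relative log expression scaling, library totals, DESeq2 1.42.0, no filter, no replicate block, each animal left out, and removal of a length or GC trend.

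Members and lists were chosen with earlier results of these data known. Described one by one were the 6 core and 3 linker members with the highest mean level per kb, and the 2 members with the smallest p in each direction in the frozen phenobarbital comparison and in each state against FR. From each list up to 3 called genes and 1 uncalled gene were named. Other members were named after their values were seen, to fill in their class.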

Additional observations from a re-analysis of the deposited data

Results flagged for a closer look

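Of 62 groups of 6 libraries checked for a library standing apart (Dixon's ratio at the 95% level), 2 were marked, and chance marks about 1 in 20. The summed core histone level of the OH library of control animal 8A was 136 CPM, the lowest of its group, with the other 5 between 149 and 156 CPM. The summed core level of the 3F_CatAllPrep library of control animal 21C was 165 CPM, the highest of its group, with the other 5 between 107 and 124 CPM. In OH, the lowest number of members called lower with an animal left out was 16, without 82B, and the highest 23, without 75C. Leaving out 8A gave neither extreme. In 3F_CatAllPrep, 23 were called lower without 21C, the same as without any other animal.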

How the results depend on the processing

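Members called lower than frozen liver ranged, with each animal left out, from 16 to 23 in OH, 9 to 13 in 18F, 19 to 22 in 3F (higher 2 to 4), 20 to 22 in 3F_TAE, 21 to 24 in 3F_Heat (higher 2 to 3) and 21 to 24 in 3F_CatPureLink, and stayed at 23 in 3F_CatAllPrep. The 3F higher count was 2 without 90C or 75C. Members called higher with phenobarbital ranged from 2 to 6 in FR, 1 to 9 in OH, 0 to 4 in 18F, 0 to 1 in 3F_TAE, 3F_Heat and 3F_CatAllPrep, and 0 to 3 in 3F_CatPureLink. With library totals alone, OH had 13 lower and 18F 6 higher and 6 lower with a median of 0.0090. Medians were then -0.82 in 3F_Heat, -0.83 in 3F_CatAllPrep and -0.95 in 3F_CatPureLink. Against 3F, 3F_TAE had 7 higher and 1 lower, 3F_Heat 5 higher, 3F_CatAllPrep 5 higher and 1 lower, and 3F_CatPureLink 5 higher and 3 lower. 3F against 18F and 3F_CatAllPrep against 3F_Heat each had 1 higher, phenobarbital in 18F had 2 higher, and Hist1h4d in 18F reversed to 0.061. Without the filter, 3F had 2 higher, and 36, 38, 39 and 42 members were lower in 3F_TAE, 3F_Heat, 3F_CatAllPrep and 3F_CatPureLink. 3F against 18F had 1 higher and 22 lower, and the same 4 states against 3F had 4, 4, 5 and 4 higher. Phenobarbital calls were 7 in FR, 2 in 18F and 1 in 3F_Heat, and the phenobarbital medians were 0.79 in OH, 0.62 in 18F, 0.55 in 3F, 0.56 in 3F_TAE, 0.56 in 3F_Heat, 0.49 in 3F_CatAllPrep and 0.61 in 3F_CatPureLink. Without the replicate block, 10 were lower in OH and 5 in 18F, 3F against 18F and 3F_TAE against 3F had 1 higher each, 3F_CatAllPrep against 3F_Heat had 0 higher, and 3F_CatPureLink against 3F_CatAllPrep had 1 lower. The block moved no other count by more than 1.5 times. With relative log expression scaling, 3F_CatAllPrep against 3F_Heat had 1 higher. DESeq2 called 7 members higher with phenobarbital in OH, 2 in 18F, 1 in 3F_TAE and 2 in 3F_CatAllPrep. Removing the GC trend moved the OH median to -0.41, and removing the length trend moved 0 of 14 medians. The causes were not tested, except that without the filter more members enter. Calls of single named members were lost 4 times in DESeq2, 3 with relative log expression scaling, 17 with library totals, 6 without the filter, 22 without the block and 55 of 1126 times with an animal left out. Members hold at most 0.037% of a library. Of the 65, 33 passed the low-count filter in no comparison of states or treatment, so they were left untested there under the main settings.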
